A study of Mus musculus with 6 samples.

Results

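Of the 175 genes with a changed exon bin after Pnky knockdown, 100 had no row in the companion table of the Ptbp1 knockdown, and these 100 genes with their 114 listed bins are described here. A bin is an exon or a part of one, numbered within its gene, and a gene's bin without a number is called its unsuffixed bin. The genes were chosen by the shPnky against shCtrl contrast itself: a bin is listed where the authors' DEXSeq test of relative usage gave an adjusted p under 0.01. That contrast calls 249 of 160603 tested bins (0.155%), and nothing is read from the count of members against that share. Absence of a gene from the other table means that no bin of it passed the same threshold there, and the values of its bins in shPtbp1 were not analysed here. All values below are therefore a description without a test.

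The libraries came from cultured mouse cells of the ventricular-subventricular zone, a neural stem cell niche, derived from C57/B6 mice at postnatal day 5 to 7. The 2 shPnky libraries (shPnky-1 and shPnky-2) carried a hairpin against the long noncoding RNA Pnky, and the 2 shCtrl libraries one against luciferase, both in the PSICO-R vector. All 4 were grown in a self-renewal medium with serum, EGF and FGF. Sorting was for GFP, or for GFP with mCherry, and the labels do not say which applied to which library. They also do not say whether replicates were separate cultures or animals, so the spread between libraries of a group may be technical.

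Most genes make more than one mRNA by splicing exons differently or by starting or ending transcripts at other sites. Relative usage asks whether the part of a gene's reads that falls in one bin moves between conditions, apart from the level of the gene. Pnky is a nuclear long noncoding RNA of neural stem cells that binds the splicing regulator PTBP1. PTBP1 holds back neuronal exons in non-neuronal and progenitor cells. No bin of Pnky itself was listed, so its knockdown was not checked here.

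Usage was lower in shPnky for 65 bins and higher for 49. Over the whole contrast, 0.0809% of tested bins were called lower and 0.0741% higher, and since the rule used it, nothing is read from these shares. By the leading bin of each gene, the one with the smallest adjusted p, it was lower in 62 genes and higher in 38 (38.0% higher, against 41.3% of the 75 genes that were in both tables). The median absolute log2 usage change was 0.075 by the authors' deposited table, and 67 of the 114 bins were under 0.1, while 5 bins reached 1 (Acot5 bin 2, Pkd1l1, Dach2, Klhdc8b and Gnat1), each on few reads. In the 75 genes of both tables, the same median was 0.13 by the authors' deposited table. The 114 bins were well covered, with a median mean count of 2509 reads, and 6 bins had a mean under 50. In the 75 genes the median mean count was lower, at 1299 reads. Fitted usage is on a scale of its own, as described below, so nothing is read from the difference of the 2 usage medians. Only 9 of the 100 genes had at least 2 listed bins (9.0%, against 32.0% of the 75 genes in both tables), so shares of a gene's reads could be formed for 23 bins. The difference between these 2 sets of genes was not tested.

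Reads are given below in the order shCtrl-1, shCtrl-2, shPnky-1, shPnky-2. The listed bins of the whole table held 2047794, 1838898, 2403866 and 1727096 reads in these libraries, so shPnky-1 was the largest and ratios between groups were taken after scaling to these sums. The scaled reads of 108 of the 114 bins did not overlap between the groups, 55 higher in shPnky and 53 lower. Among all 249 listed bins, 89.6% did not overlap, 44.2% higher and 45.4% lower. The median gap between replicates was 0.043 on the log2 scale in shCtrl and 0.073 in shPnky, and the median absolute log2 ratio between groups was 0.29. Scaled reads of a bin follow the level of its gene as well as the use of the bin, and in these cultures fewer cells of a type and less RNA per cell cannot be told apart.

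Usage and reads moved in the same direction in most bins, but not in all. Fitted usage is on a scale of its own, which is neither a read count nor a share. In shCtrl it was 282 for Vim bin 5, at a mean of 212507 reads, and 166 for the Zmat3 unsuffixed bin, at 22413. The size of a log2 usage change is therefore not comparable with that of a log2 read ratio, and only directions are compared. Of the 65 bins with lower usage, 48 had a lower and 17 a higher scaled read number in shPnky. Of the 49 bins with higher usage, 39 had more and 10 fewer reads. The plot of usage against reads shows bins that differed in direction in its upper left and lower right.

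**Figure D1:**
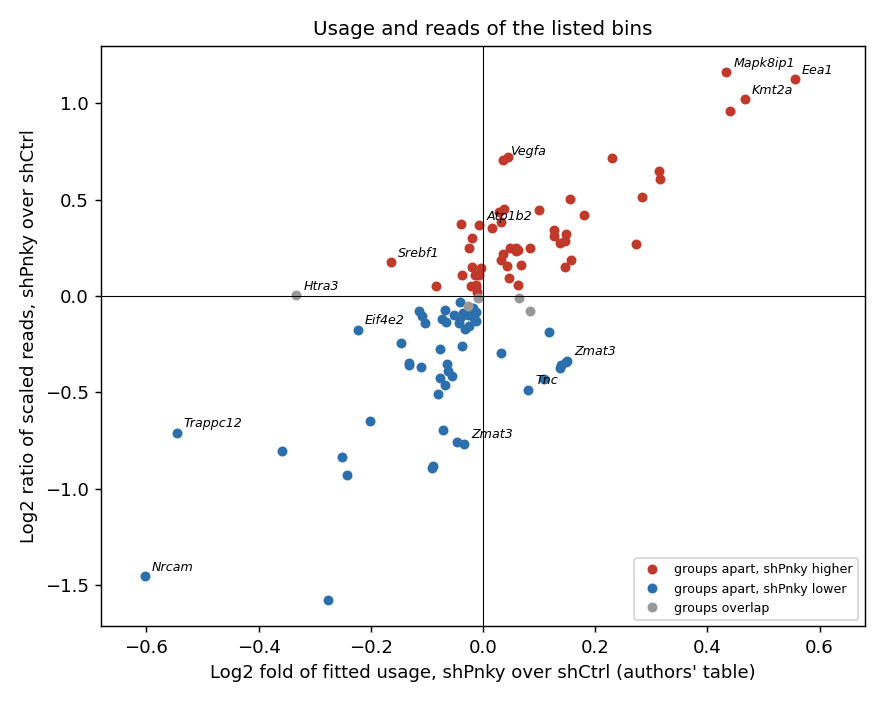
Each point is 1 bin of the 100 genes, with the log2 change of fitted usage from the authors' deposited table on the x axis and the log2 ratio of scaled reads, shPnky over shCtrl, on the y axis; colours show whether the 2 libraries of each group lay apart. Of the 108 bins drawn, 36 lie in the upper right, 46 in the lower left, 16 in the upper left and 10 in the lower right, and 6 bins lying beyond the axes are not drawn. These are Acot5 bin 1, with a mean of 202 reads and the largest log2 read ratio (6.76), and bins with few reads in Acot5 (bin 2), Pkd1l1, Klhdc8b, Gnat1 and Dach2.

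Among 13 genes of RNA processing and translation, 9 leading bins had lower and 4 higher usage, where 106 of all 175 genes were lower. The function classes were formed after the values were seen, and nothing particular to a class is read from its counts. Zmat3 (Entrez 22401), which encodes an RNA-binding zinc finger protein induced by p53, had 5 listed bins, the most of any of the genes. Its unsuffixed bin held 29725, 25365, 20782 and 13780 reads, a log2 ratio of -0.77, and its share of the gene's listed reads was 89.6% ± 0.154 (SD, n = 2) in shCtrl and 86.6% ± 0.046 (SD, n = 2) in shPnky. The adjusted p of this bin, 9.09e-31 by the authors' deposited table, was the smallest among the 100 genes. Both shPnky libraries were below both shCtrl libraries in reads and in share. Bin 4 went from 3.49% ± 0.001 to 4.47% ± 0.033 (SD, n = 2). Bins 1, 2 and 3 also took a larger share, by 0.664, 0.795 and 0.560 percentage points. Zmat3 thus had fewer reads in all 5 bins, and the numbered bins were reduced less than the unsuffixed one: their log2 read ratios were -0.34, -0.34, -0.37 and -0.36 for bins 1 to 4.

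The cap-binding protein gene Eif4e2 (bin 7) held 3164, 2632, 3254 and 2219 reads, with a log2 usage change of -0.22 and an adjusted p of 3.1e-13 by the authors' deposited table. Its scaled reads were lower in both shPnky libraries by a log2 ratio of -0.17. Srsf10, a splicing factor of the SR family, had higher usage of bin 6, with 5854, 5322, 7515 and 5207 reads and a log2 usage change of 0.046 by the authors' deposited table.

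Other members of this class with lower usage were Qk, the quaking RNA-binding protein (unsuffixed bin, log2 usage change -0.026), Hnrnpa3 (bin 10, -0.017), the Integrator subunit gene Ints4 (bin 1, -0.15), the ribosomal protein gene Rpl13a (unsuffixed bin, -0.038) and the RNA helicase gene Ddx19a (unsuffixed bin, -0.043), all by the authors' deposited table. Qk held 18640, 16123, 20209 and 13162 reads, and Hnrnpa3 held 69869, 63221, 76198 and 54585. Higher usage was listed for Mrps15, of the mitochondrial ribosome, at 840, 751, 1306 and 1064 reads and a log2 usage change of 0.15 by the authors' deposited table. Its scaled reads were also higher, by a log2 ratio of 0.50. Rbm45 and Dph1, which acts in the modification of elongation factor 2, had log2 usage changes of 0.15 and 0.042 by the authors' deposited table. In this class 14 of 18 bins had fewer scaled reads in both shPnky libraries, 5 of them in Zmat3, against 45.4% of all listed bins, and 4 had more.

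**Figure D2:**
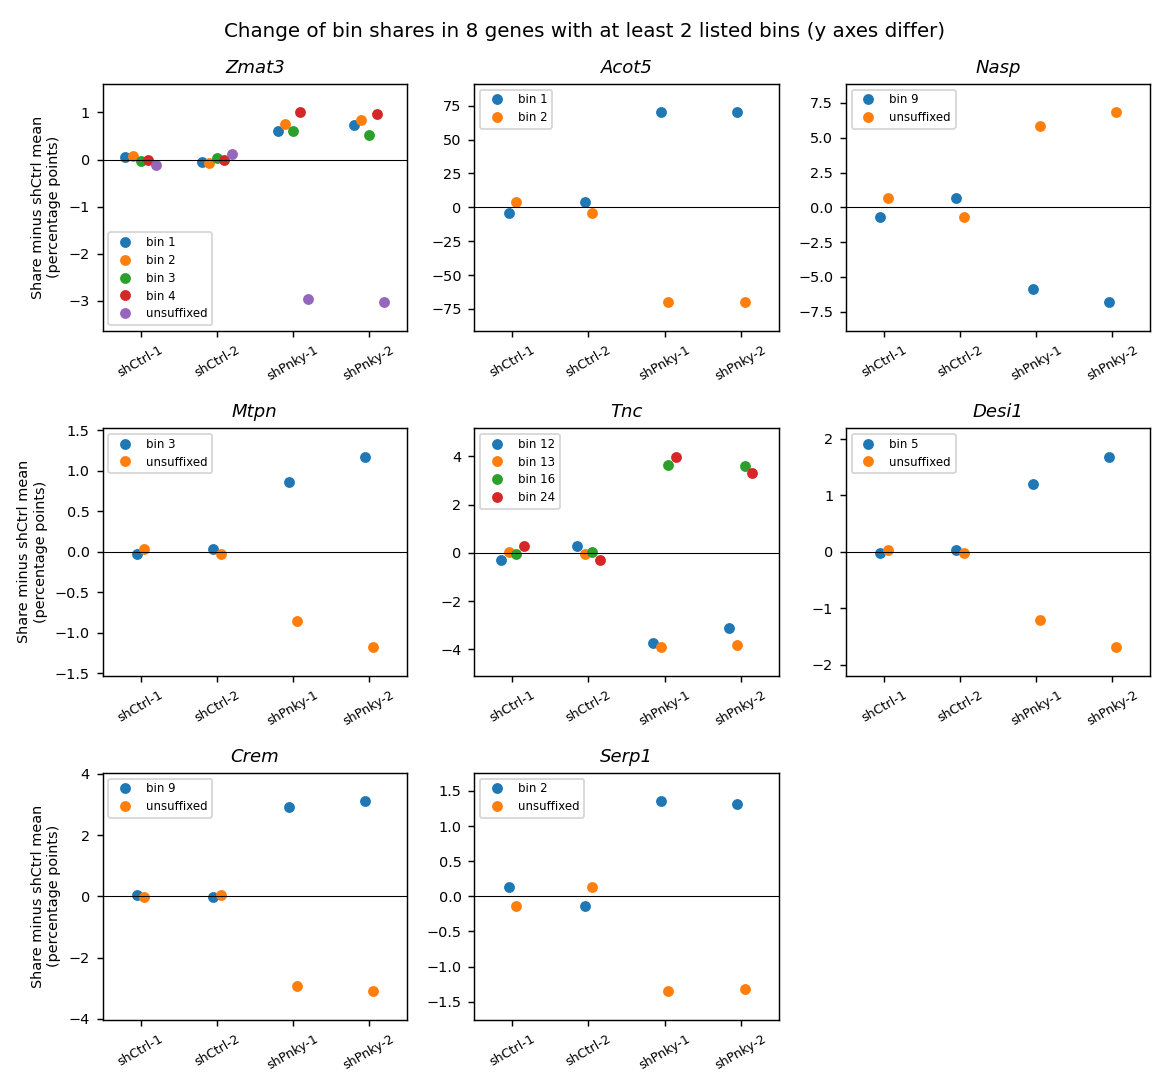
Each panel is one of 8 genes with at least 2 listed bins, each point a library, and the y axis gives the bin's share of the gene's listed reads minus the mean of the 2 shCtrl libraries, in percentage points, on an axis of its own. Shares of all 21 bins drawn did not overlap between groups.

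Of the 23 bins in the 9 genes with at least 2 listed bins, 21 had shares that did not overlap between groups, where 98.1% of all bins in genes with several listed bins did not. In 8 of the 9 genes the listed bins went in both directions. With few listed bins, a share is a split between those bins only, because uncalled bins are left out.

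Of 10 matrix, adhesion and secreted cue genes, 7 had a lower leading bin, where 106 of all 175 genes did. Fewer scaled reads in both shPnky libraries were found for 9 of their 13 bins, 4 of them in Tnc, against 45.4% of all listed bins. Tnc (Entrez 21923) encodes tenascin-C, an extracellular matrix glycoprotein of the neural stem cell niche with alternatively spliced fibronectin repeats. Its bin 13 held 3577, 3220, 2356 and 1563 reads and its bin 12 held 3289, 3046, 2186 and 1490. The share of bin 13 went from 25.6% ± 0.053 to 21.7% ± 0.061 and that of bin 12 from 23.9% ± 0.429 to 20.4% ± 0.448 (SD, n = 2). Bin 16 held 4048, 3661, 3549 and 2342 reads, and its share was higher by 3.62 percentage points at 32.6% ± 0.031 (SD, n = 2). Bin 24 went from 21.6% ± 0.411 to 25.2% ± 0.479 (SD, n = 2). Reads were thus lower in all 4 Tnc bins in both shPnky libraries, with log2 ratios of -0.88 and -0.89 for bins 12 and 13 against -0.49 and -0.43 for bins 16 and 24.

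Nrcam, a neuronal cell adhesion molecule, held 60, 56, 28 and 17 reads in bin 17, a log2 ratio of -1.45. Col5a1, a fibrillar collagen chain, held 5843, 5316, 4163 and 2878 reads in bin 65, with a log2 read ratio of -0.76. In both genes the 2 shPnky libraries were below both shCtrl libraries, and usage of the bin was lower as well, with log2 usage changes of -0.60 and -0.047 by the authors' deposited table. The heparan sulfate proteoglycan gene Sdc2 (bin 4; 8213, 7641, 6943 and 5252 reads) and Thsd7a, a thrombospondin domain protein (unsuffixed bin; 1414, 1327, 1445 and 851 reads), had log2 read ratios of -0.46 and -0.37. The serine protease gene Htra3 had lower usage of bin 3, a log2 usage change of -0.33 by the authors' deposited table, although its scaled reads overlapped between groups (270, 233, 295 and 236 reads).

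Genes of the same class with higher usage were Vegfa, Ntn1 and Fbn1. Vegfa, the vascular endothelial growth factor, held 7623, 7410, 14905 and 11113 reads in bin 7, a log2 ratio of 0.70. Its log2 usage change was 0.036 by the authors' deposited table. Ntn1, the axon guidance cue netrin-1, held 3707, 3193, 5075 and 3595 reads in bin 5, and the microfibril protein gene Fbn1 held 123, 131, 240 and 152 in bin 42. Reads and usage of the Vegfa bin were both higher in shPnky, and the sizes of these changes are not comparable. Fbn1 had a log2 usage change of 0.28 by the authors' deposited table.

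Chromatin and transcription genes were split, with 7 of 16 leading bins higher and 9 lower, where 106 of all 175 genes were lower. Kmt2a, a histone H3 lysine methyltransferase, held 44, 34, 103 and 67 reads in bin 15, a log2 ratio of 1.02. Hdac5, a class IIa histone deacetylase, held 69, 54, 132 and 118 in bin 26, a log2 ratio of 0.96. The transcriptional repressor gene Cic held 208, 163, 393 and 259 in its unsuffixed bin, a log2 ratio of 0.72. Each was higher in both shPnky libraries than in either shCtrl library, and the log2 usage changes were 0.47, 0.44 and 0.23 by the authors' deposited table. Hivep3, a zinc finger transcription factor, went the same way at 74, 86, 164 and 101 reads, though its shCtrl libraries were 0.37 apart on the log2 scale. Gm13251, a zinc finger gene now named Zfp992, held 191, 174, 158 and 93 reads in its unsuffixed bin, a log2 ratio of -0.65, and its usage was lower.

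Nasp (Entrez 50927), a histone chaperone, had the largest exchange between 2 well covered bins. Bin 9 held 6076, 5808, 6723 and 4760 reads and the unsuffixed bin 3319, 2989, 4581 and 3375. The share of bin 9 went from 65.3% ± 0.954 in shCtrl to 59.0% ± 0.680 in shPnky (SD, n = 2), and the unsuffixed bin took the remainder. Crem, a cAMP-responsive transcription factor known for many isoforms, showed an exchange too. Its unsuffixed bin held 3073, 2829, 2806 and 1921 reads and its bin 9 held 177, 161, 255 and 179. Bin 9 went from 5.42% ± 0.044 to 8.43% ± 0.137 of the listed Crem reads (SD, n = 2).

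Lower usage was listed for Rfx7, a winged-helix transcription factor (bin 8; 7690, 7122, 7437 and 4957 reads), for Sfmbt1, a polycomb-type protein (bin 23; 1572, 1425, 1562 and 1081), and for Srebf1, a regulator of lipid synthesis genes (bin 18; 563, 477, 756 and 500). The first 2 had fewer scaled reads in shPnky and Srebf1 had more. The long noncoding RNA 6720401G13Rik, now named Firre, held 2322, 2303, 2838 and 2048 reads in bin 4, and these overlapped between groups after scaling. The unsuffixed bin of Dach2, a transcription cofactor, held 0, 0, 6 and 6 reads. The scaled ratio was 3.76-fold against a floor of 3 counts over the shCtrl group. The floor allows for counting error in shCtrl only, and that of the shPnky reads is left out.

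**Figure D3:**
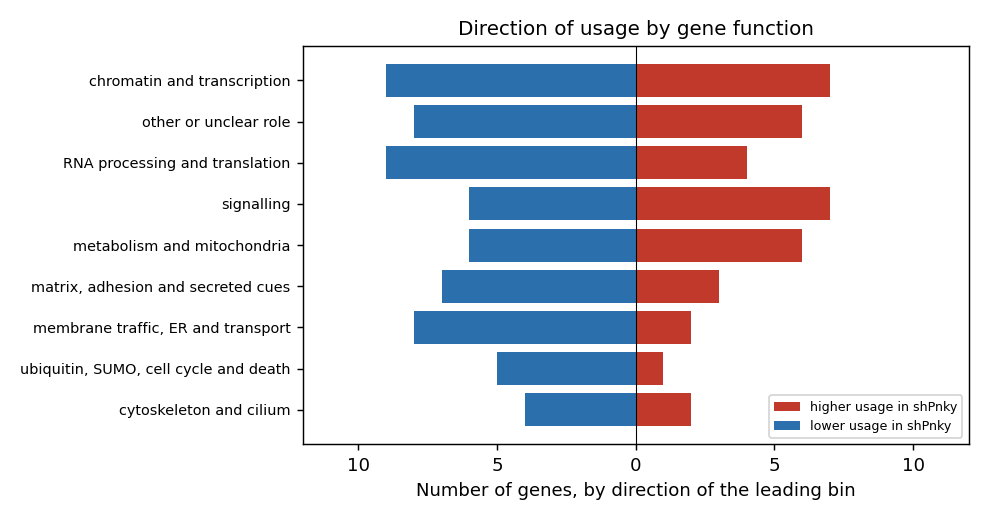
Bars give the number of genes in each function class whose leading bin had higher (right) or lower (left) usage in shPnky, from the authors' deposited table; classes were assigned from gene names after the values were seen. Lower leading bins outnumber higher ones in 7 of the classes shown, signalling has 7 higher and 6 lower, and metabolism and mitochondria has 6 of each.

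Signalling genes had 7 higher and 6 lower leading bins, where 106 of all 175 genes were lower. Both cAMP-dependent protein kinase subunits among the genes were lower. Prkacb, a catalytic subunit, held 533, 605, 379 and 261 reads in bin 11, a log2 ratio of -0.93, with a log2 usage change of -0.24 by the authors' deposited table. Prkar1a, a regulatory subunit, held 41989, 37146, 50868 and 36612 in bin 10, with a log2 usage change of -0.013 by the authors' deposited table. The reads of Prkacb were lower in both shPnky libraries, and those of Prkar1a slightly higher (log2 ratio 0.057).

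Mapk8ip1, a scaffold of the JNK pathway, held 82, 60, 185 and 149 reads in bin 11, a log2 ratio of 1.16, and its log2 usage change was 0.43 by the authors' deposited table. Chn1, a Rac GTPase-activating protein, held 875, 764, 1180 and 925 in bin 8, with a log2 usage change of 0.15 by the authors' deposited table. Ppp1r2, an inhibitor of protein phosphatase 1, held 5666, 4968, 8381 and 6303 in its unsuffixed bin, a log2 read ratio of 0.38. These 3 bins lay apart between groups in the same direction as their usage. Git1, an Arf GTPase-activating protein, Cdc42bpb, a kinase downstream of Cdc42, and Lrig1, a negative regulator of growth factor receptors, were also higher, with log2 usage changes of 0.058, 0.13 and 0.084 by the authors' deposited table. The reelin receptor gene Lrp8 (bin 19; 3506, 3112, 3982 and 2626 reads) and Gnb1, a G protein beta subunit (bin 11; 45023, 39815, 50198 and 35161), had lower usage, with log2 usage changes of -0.052 and -0.013 by the authors' deposited table. Gnat1, a transducin subunit of photoreceptors, rests on 4, 9, 5 and 0 reads in bin 2, and its groups overlapped.

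Of 6 cytoskeletal and ciliary genes, 4 had a lower leading bin, a share near that of all genes (106 of 175). More scaled reads in both shPnky libraries were found for 5 of their 7 bins, against 44.2% of all listed bins. Vim, the intermediate filament protein vimentin and the one member on the neural stem cell and astrocyte marker list, held 206569, 184699, 261234 and 197525 reads in bin 5, with a log2 usage change of -0.0028 by the authors' deposited table. Its scaled reads were higher in both shPnky libraries by a log2 ratio of 0.15. Mtpn, a small protein that binds actin capping protein, had lower usage of the unsuffixed bin, whose scaled reads overlapped between groups, and higher usage of bin 3, whose share went from 4.24% ± 0.042 to 5.26% ± 0.223 (SD, n = 2). Kif3a, a kinesin motor of ciliary transport, and Arpc5, a subunit of the Arp2/3 complex, had lower usage with more reads. Fbf1, a protein of the ciliary base, held 352, 325, 560 and 403 reads in bin 11, with a log2 usage change of 0.18 by the authors' deposited table.

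In membrane traffic, the endoplasmic reticulum and transport, 8 of 10 leading bins had lower usage, against 106 of 175 over all genes. Trappc12, of the TRAPP vesicle tethering complex, held 181, 184, 147 and 93 reads in bin 6, with a log2 usage change of -0.55 by the authors' deposited table. Osbpl6, an oxysterol-binding protein relative, held 6762, 6248, 5053 and 3514 in bin 26, a log2 read ratio of -0.70. Both were lower in each shPnky library than in either shCtrl library. Get4, which acts in the insertion of tail-anchored proteins, Hiat1, a predicted transporter now named Mfsd14a, and Ero1lb, an oxidase of the endoplasmic reticulum, had lower usage and fewer reads, with log2 read ratios of -0.39, -0.11 and -0.42. Atp1b2, a beta subunit of the sodium pump, had lower usage with more reads (29750, 27578, 45848 and 32859 in bin 6, a log2 ratio of 0.37). Serp1, a stress-associated protein of the endoplasmic reticulum, had a bin 2 share of 11.1% ± 0.193 in shCtrl and 12.4% ± 0.030 in shPnky (SD, n = 2).

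The 2 higher leading bins of this class were those of Eea1 and Pkd1l1. Eea1, the early endosome antigen that tethers endosomes, held 31, 41, 103 and 68 reads in bin 15, with a log2 read ratio of 1.12. Bin 29 of Pkd1l1, a polycystin family gene, held 0, 0, 23 and 10 reads, a ratio of 10.4-fold against the same floor of 3 shCtrl counts. Counting error of the shPnky reads is again left out. Eea1 rested on few reads, and its shCtrl libraries were 0.55 apart on the log2 scale. Both of its shPnky libraries lay above both shCtrl libraries.

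In metabolism and mitochondria, 11 of 13 bins had more scaled reads in both shPnky libraries, where 44.2% of all listed bins did, and usage was split (6 higher, 7 lower). Acot5 (Entrez 217698), a peroxisomal acyl-CoA thioesterase, held 2, 4, 421 and 382 reads in bin 1 and 7, 9, 15 and 13 in bin 2. The scaled ratio of bin 1 was 126-fold, with an exact 95% interval of 57.6 to 344 that covers counting error only, and that of bin 2 was 1.65-fold (0.861 to 3.26). Bin 1 was 26.5% ± 6.04 of the listed Acot5 reads in shCtrl and 96.6% ± 0.106 in shPnky (SD, n = 2). Both bins thus held more reads in shPnky, and the log2 usage changes had opposite signs, 0.69 for bin 1 and -2.44 for bin 2 by the authors' deposited table. Of the 50-base words in the longest annotated Acot5 transcript, 22.8% also occur in other genes, mostly Acot3 (14.1%), so its reads are uncertain.

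Ppap2b, a lipid phosphate phosphatase now named Plpp3, held 7896, 6756, 15151 and 10560 reads in its unsuffixed bin, a log2 ratio of 0.72. Its log2 usage change was 0.044 by the authors' deposited table. Tpi1, the glycolytic triosephosphate isomerase, held 21953, 19731, 31685 and 24498 in bin 1, and Got2, the mitochondrial aspartate aminotransferase, held 2985, 2669, 4122 and 3003 in bin 9. These 3 genes had higher usage and more reads. Ppm1k, a phosphatase of branched-chain amino acid breakdown, Gcsh, of the glycine cleavage system, and Ptgr2, a prostaglandin reductase, had lower usage and more reads, with log2 read ratios of 0.38, 0.30 and 0.25. Pank2, a kinase of coenzyme A synthesis, and Micu2, a regulator of mitochondrial calcium uptake, were the 2 with fewer reads.

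Of the genes of ubiquitin, SUMO, cell cycle and cell death, 5 of 6 had a lower leading bin, where 106 of all 175 genes did. Ube2q1, a ubiquitin-conjugating enzyme, held 7325, 6217, 6021 and 4113 reads in bin 12, with a log2 usage change of -0.08 and an adjusted p of 3.42e-11 by the authors' deposited table. The deubiquitinase gene Cyld held 162, 124, 105 and 69 in bin 12, a log2 read ratio of -0.81. Both genes were lower in both shPnky libraries. Desi1, a SUMO isopeptidase, had a bin 5 share of 5.53% ± 0.036 in shCtrl and 6.98% ± 0.338 in shPnky (SD, n = 2). Anapc5, a subunit of the anaphase-promoting complex, and Bcl2l11, the cell death protein Bim, had log2 usage changes of -0.035 and -0.018 by the authors' deposited table. Depdc1a was higher at 558, 534, 854 and 601 reads in bin 7, a log2 read ratio of 0.32.

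**Figure D4:**
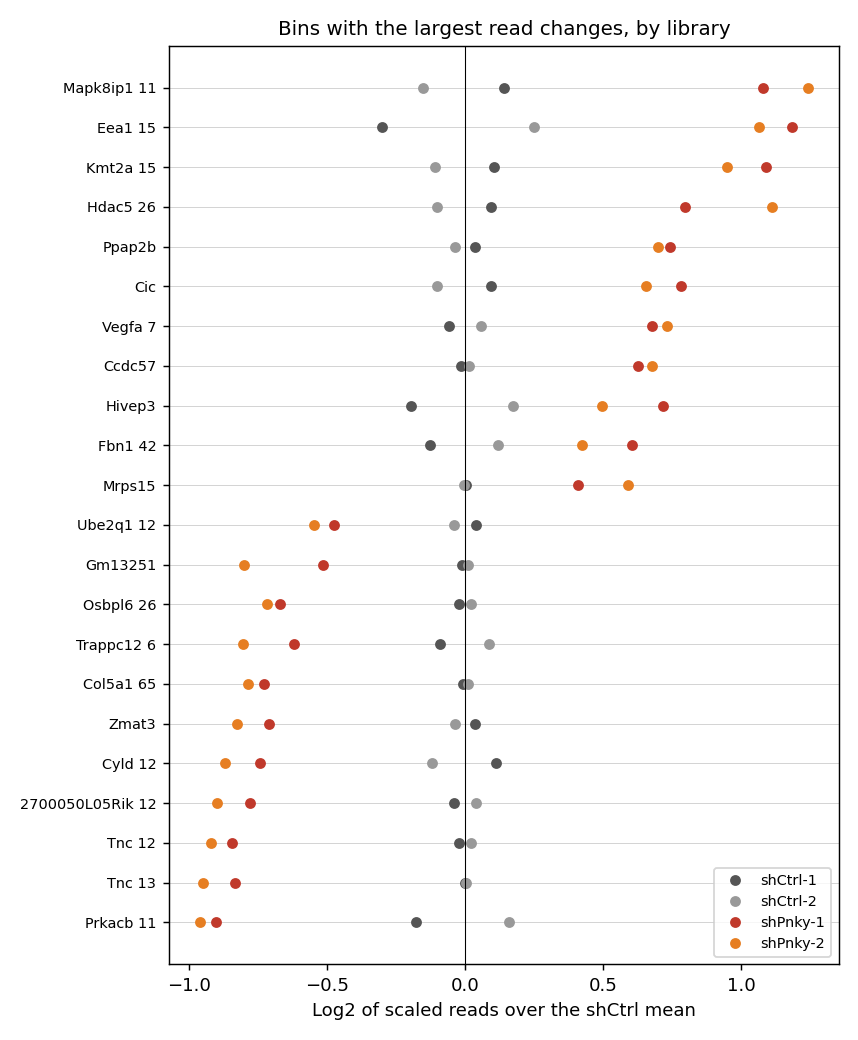
Points give the scaled reads of each library on a log2 scale against the mean of the 2 shCtrl libraries, for 22 of the bins (21 genes, Acot5 not among them) with a log2 ratio of at least 0.5 in size and a mean of at least 50 reads. In the 11 higher and 11 lower bins drawn, the 2 shPnky libraries lie on one side of both shCtrl libraries.

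The remaining 14 genes have other or unclear roles, of which 6 leading bins were higher and 8 lower, where 106 of all 175 genes were lower. Mxra7 was the clearest of the higher ones, at 6993, 6240, 11276 and 7960 reads and an adjusted p of 1.28e-07 by the authors' deposited table. Fndc4 (3684, 3215, 3796 and 2850 reads) and Pcnxl4 (1367, 1224, 1516 and 1090) were lower, with log2 usage changes of -0.067 and -0.11 by the authors' deposited table. Mxra7 had more scaled reads in both shPnky libraries, and Fndc4 and Pcnxl4 had fewer, the latter with a log2 ratio of -0.079 that changed sign without scaling. Rfesd was higher in both shPnky libraries at 497, 477, 679 and 500 reads in bin 3, a log2 read ratio of 0.19. Klhdc8b rests on 18, 14, 3 and 7 reads in bin 8, a ratio of 0.294 (exact 95% interval 0.129 to 0.613, counting error only). 2700050L05Rik, now named Edrf1, held 362, 343, 254 and 168 reads in bin 12, a log2 ratio of -0.84.

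Nearest to the threshold were Ppap2b, Ankrd34a and Ero1lb, with adjusted p of 0.00987, 0.00991 and 0.00995 by the authors' deposited table. Ankrd34a held 104, 70, 106 and 69 reads in bin 1, and its groups overlapped after scaling. Bins above the threshold were not analysed here. The 10 function lists (380 genes) held 19 of the 100 genes. They were drawn up with earlier results of these data known, so nothing is read from how many genes they held. By leading bin, RNA processing gave 4 of 62 (1 higher, 3 lower), actin, matrix and adhesion 4 of 50 (1 higher, 3 lower), chromatin and transcription 3 of 57 (all higher: Hdac5, Kmt2a and Dach2), metabolism 2 of 36 (both higher), and intermediate filaments and motors (26 genes) and kinases and receptor signalling (46 genes) 2 each, all lower. Lysosome and endosome gave Eea1 (of 34, higher), translation Rpl13a (of 22, lower), cell cycle Zmat3 (of 26, lower) and the endoplasmic reticulum list none of 24. Genes of these lists that were in both tables are not counted, such as Dnajc3, Pigk and Plod2 of the endoplasmic reticulum list. Over all 175 genes of the table, 69 leading bins were higher and 106 lower, with a median log2 usage change of -0.023 by the authors' deposited table, against -0.018 in the 100 genes. Of 6 marker lists, only the neural stem cell and astrocyte list had a member among the 100 genes (Vim, 1 of 18 genes). The lists of neuroblasts (11 genes), oligodendrocyte lineage (10), microglia (7), endothelial, pericyte and fibroblast cells (10) and ependymal cells (6) had none among the 100 genes, which concerns called bins and not levels. Dclk1 (neuroblasts), Ptprz1 (oligodendrocyte lineage), and Gfap and Prom1 (neural stem cells and astrocytes) did have called bins in the same contrast. They are outside the 100 genes because they also had a row for the Ptbp1 knockdown.

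Some of these genes share sequence with near copies. In 12 of the 99 genes matched to GENCODE M21 (GRCm38), over 10% of the 50-base words of the longest transcript also occur in another gene. These are Depdc1a (62.6%), Gpx4 (61.7%), Rpl13a (57.4%), Gm13251 (43.0%), Dph1 (33.3%), Ddx19a (33.3%), Got2 (32.3%), Hnrnpa3 (28.2%), Ptma (27.8%), Acot5 (22.8%), Gprasp1 (10.97%) and Srsf10 (10.04%), and their reads are uncertain. Another 62 genes share no such word. Exons of 28 genes, Tnc, Kmt2a, Crem and Mapk8ip1 among them, overlap an annotated gene on the opposite strand and those of 9 one on the same strand. The libraries were strand-specific, but whether counting used strand is not given in the sources used here, so reads of such partners may not be told apart.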

How the data were processed

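The libraries were poly(A)-selected and strand-specific, per the labels' protocols. The submitters' processing notes name mm9, TopHat2 2.0.10, Cuffdiff 2.1.1, Cufflinks and Cuffnorm, with no role. Neither counting program nor bin annotation is given in sources used here. The authors deposited, per the file headers, raw read counts per bin and library, p-values and adjusted p-values, a log2 fold of fitted usage, and model scores (fitted usage, dispersion, test statistic) for bins with an adjusted p under 0.01. The number of tested bins, 160603, was recovered from p and adjusted p.

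From these tables, genes were matched by Entrez number, and the genes, function lists and naming rule were chosen with earlier results of these data known. Counts were divided by each library's sum over the 249 listed bins, which is not its depth. Log2 ratios compare group means with a pseudocount of 0.5, and shares are percent of a gene's listed reads. No test was made, since the contrast chose the genes; the code was tested on simulated data. Both replicate pairs differed beyond sampling noise (chi-square per degree of freedom of 2.68 in shCtrl and 8.13 in shPnky), so each library counts separately. Alternatives were median-of-ratios and TMM scaling (edgeR 4.0.16 in R 4.3.3), raw counts, a pseudocount of 5, a mean count of at least 50, an adjusted p under 0.001, leaving out each library and, for some counts chosen after seeing the data, each library or the genes with near copies. Python 3.11.15 was used. Named by rule were the genes with at least 2 listed bins, the 10 smallest adjusted p and 5 largest folds per direction, up to 6 per function list, listed markers and the 3 nearest to the threshold. Other genes were named from their function class, assigned to 86 genes after the values were seen. Not every gene meeting this rule is reported here. No bin sequence is shown, since the tables used here give no coordinates.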

Additional observations from a re-analysis of the deposited data

How the results depend on the processing

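With an adjusted p under 0.001, the number of genes was 46 in place of 100, and 20 bins had higher and 36 lower usage in place of 49 and 65. Judged against shPtbp1 rows under 0.001, it was 112, and a mean count of at least 50 left 95. Without scaling, 34 bins were higher and 20 lower in reads with groups apart, in place of 55 and 53; shPnky-1 was the largest library. Median-of-ratios and TMM scaling gave 55 and 56 higher and 52 and 51 lower. As alternatives chosen after seeing the data, leaving out each library gave 56 higher and 55 lower each time, and leaving out the genes with near copies gave 46 and 49. A bin with groups apart stays apart when a library is left out. Those counts could therefore not fall, and nothing on stability is read from them. The median absolute log2 read ratio of 0.29 ranged from 0.28 to 0.31 over all settings. Single bins were less stable than this median. With TMM scaling, the log2 read ratio of 40 of the 114 bins moved by at least the larger SD between replicates. Median-of-ratios scaling moved 3 and no scaling 67. Bins with groups apart whose sign was reversed are not in these counts, 1 with TMM and 7 without scaling. In 12 of the 114 bins the sign differed in some setting, so read ratios near 0 depend on the scaling. The median share change of the leading bins, 3.001 percentage points, ranged from 2.892 to 3.043 without 1 library and was 2.22 for bins with a mean of at least 50 reads, where Acot5 drops out. The sign of the read ratio of bins with groups apart was reversed, among the genes reported, without scaling for Pcnxl4 (0.0083), Gnb1 (0.0088), Desi1 (0.0008, unsuffixed bin), Ptchd2 (0.062), Anapc5 (0.0014) and Bcl2l11 (0.025), and with TMM for Ptchd2 (0.014). Pairing the libraries by replicate number, 55 bins were higher and 53 lower in both same-numbered pairs. Bins with groups apart have the same direction in every pair, so these counts could not be lower either. No replicate block was fitted, since no test was made, and the labels do not say that the numbers pair the libraries.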
